A study of Homo sapiens with 8 samples.

Results

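Serine proteases anchored at the epithelial cell surface and the Kunitz-type inhibitors that restrain them were examined in HepG2 cells given the epithelial transcription factor GRHL2. The 9 genes were chosen by symbol as the matriptase, prostasin, hepsin and HAI family genes, an axis known to be controlled by Grainyhead factors in epithelia. All 9 were among the 17561 genes of the deposited table. They were the Kunitz inhibitors SPINT1 and SPINT2, the membrane-anchored proteases ST14, PRSS8, HPN, TMPRSS2, TMPRSS4 and TMPRSS6, and the secreted protease HGFAC.

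HepG2 is an established human line from a liver tumor. Cells were transfected with pGRHL2, which encodes a flag-tagged GRHL2 driven by an EEF1A1 promoter together with a green fluorescent protein, or with pcDNA3, an empty vector. RNA was taken 48 h later, with 4 libraries per plasmid numbered 1 to 4, which the study describes as independent biological replicates. All libraries come from 1 cell line, the vectors differ in more than the GRHL2 insert, and no sort of transfected cells is described, so that each value averages over transfected and untransfected cells. In such bulk RNA, fewer expressing cells and less RNA per cell cannot be told apart.

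Matriptase and its relatives are trypsin-like enzymes made as inactive precursors, which are cut to become active. Once active they cleave proteins at the cell surface, among them growth factor precursors, receptors and sodium channel subunits. Hepatocyte growth factor activator inhibitors, the HAI proteins encoded by SPINT1 and SPINT2, sit in the same membranes and block these enzymes through their Kunitz domains. In epithelia this balance is needed for barrier formation. In liver, hepsin and the hepatocyte growth factor activator are made by hepatocytes, where matriptase-2 (TMPRSS6) also lowers the iron hormone hepcidin.

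Each value is on a log2 scale, set by the authors against the length of the gene's transcripts, so that a difference of 1 is a doubling. The table held no read counts, so the depth behind a value was unknown. In 17561 of 17561 genes, averaging the pGRHL2 and pcDNA3 values of a number gave the same mean for each of the 4 numbers. Libraries were therefore compared as 4 pairs, and within a pair one value mirrors the other around that mean. The log2 fold change (log2 FC) is pGRHL2 minus pcDNA3, errors are the SD over the 4 pairs, and tests are limma fits over all genes with the pair as a block.

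GRHL2 itself, on chromosome 8, had values of 16.2 to 16.9 in the pGRHL2 libraries and of 6.61 to 7.25 in the pcDNA3 libraries (log2 FC 9.48 ± 0.57, SD, n = 4 pairs). Library medians over all genes lay between 6.71 and 6.73. By RT-qPCR, the paper reports low or undetectable GRHL2 in this line without transfection. The pcDNA3 values of GRHL2 are therefore not read as its basal level, and what sets them was not tested. Hepatocyte markers were abundant in this line, with means from 9.83 for TTR to 17.1 for AFP, and 9 of 9 were listed. Cholangiocyte markers ranged from -1.07 for CFTR to 13.9 for KRT19. Of the fibroblast and endothelial markers 2 of 6 were listed (COL1A1 and PECAM1), and of the blood markers 1 of 4 (CD14). The mean of the hepatocyte list was 13.1 to 13.3 in pGRHL2 and 12.9 to 13.2 in pcDNA3. In these 4 lists 0 genes were called by limma and 4 had an unadjusted p under 0.05, against 2.19% and 16.0% of all genes.

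None of the 9 genes passed the limma adjusted p threshold of 0.05, a threshold passed by 2.19% of all genes (1.69% higher and 0.501% lower in pGRHL2). At an unadjusted p under 0.05, 4 of the 9 genes qualified, namely SPINT1, PRSS8, TMPRSS2 and TMPRSS4, against 16.0% of all genes. The same 4 were higher in pGRHL2 in 4 of 4 pairs, so that their groups did not overlap, which was the case for 13.4% of all genes. With a weight estimated for each pair (arrayWeights) limma called 3 of the 9 higher, along with 2.86% of all genes. Without the pair as a block it called 4 of the 9 higher, along with 10.4% of all genes, but that fit counts the mirrored libraries of a pair as independent. The median log2 FC was 0.058 over the 9 genes and 0.0017 over all genes. For the other 5 genes the pairs disagreed in sign.

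**Figure D1:**
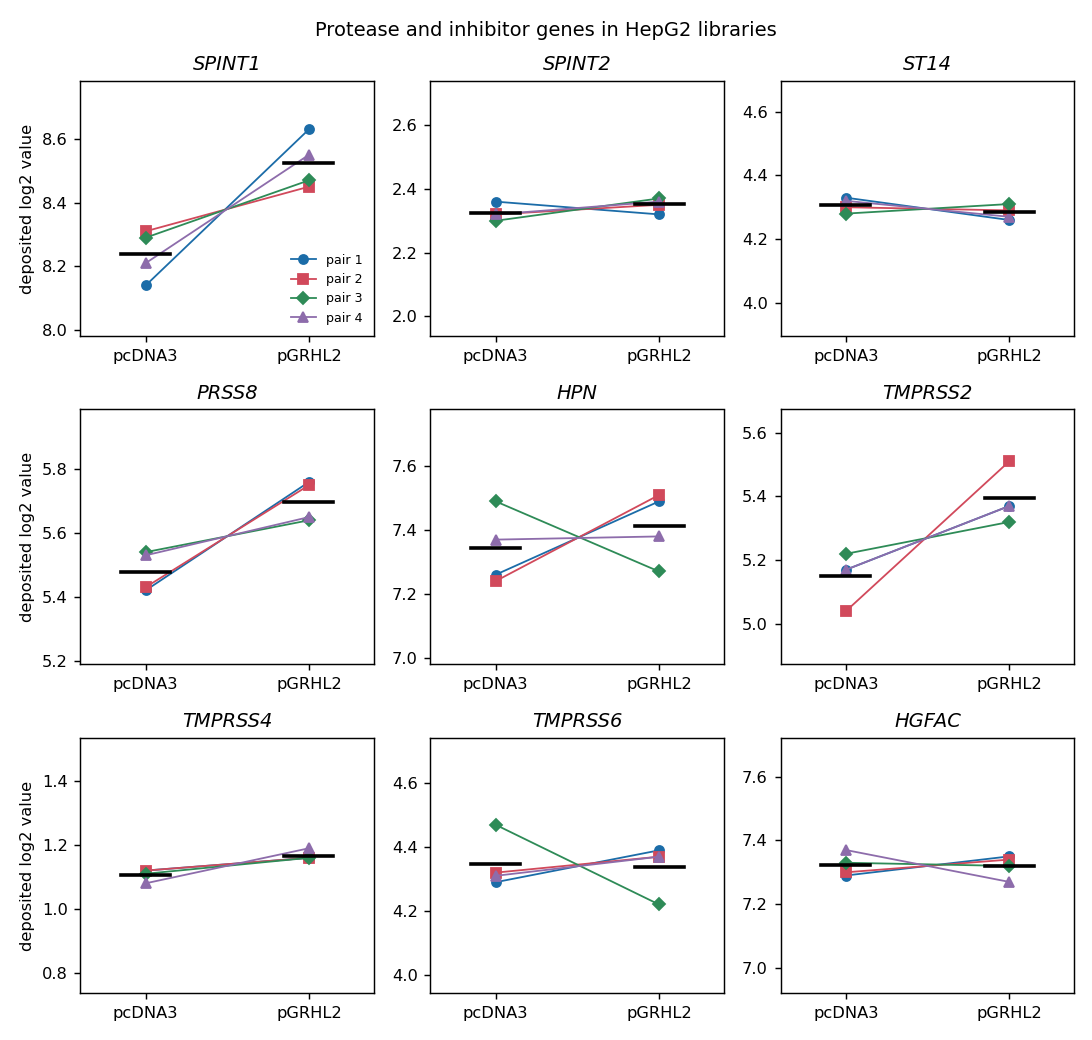
Deposited log2 values (vertical axis) of the 9 protease and inhibitor genes in the pcDNA3 and pGRHL2 libraries, with a line joining the libraries of a pair and black bars at the group means. Every panel spans 0.8 log2 units. The groups are apart for SPINT1, PRSS8, TMPRSS2 and TMPRSS4, while pair 3 runs against pairs 1 and 2 for HPN and TMPRSS6.

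Levels differed widely between the 9 genes in the pcDNA3 libraries. SPINT1 was highest at 8.24 ± 0.080 (SD, n = 4), followed by HPN at 7.34 ± 0.11 and HGFAC at 7.32 ± 0.038, whose libraries overlapped. PRSS8 stood at 5.48 ± 0.065 and TMPRSS2 at 5.15 ± 0.080, with libraries that did not overlap. TMPRSS6 at 4.35 ± 0.082 and ST14 at 4.31 ± 0.021 overlapped. SPINT2 at 2.32 ± 0.022 and TMPRSS4 at 1.11 ± 0.015 were lowest. Among all genes of the table the mean levels lay between percentile 11.1 for TMPRSS4 and percentile 67.9 for SPINT1. These SDs are those left after the pair means were made equal, and the transcript length used by the authors also enters such comparisons between genes. So does the share of exon bases that overlap other genes, since reads that overlap several genes were counted for none.

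SPINT1 encodes HAI-1, the inhibitor of matriptase, prostasin, hepsin and the hepatocyte growth factor activator. Its position in hg38 is chr15:40844018-40858207. Libraries 1 to 4 of pGRHL2 had values of 8.63, 8.45, 8.47 and 8.55, against 8.14, 8.31, 8.29 and 8.21 in those of pcDNA3. All 4 pGRHL2 libraries were thus above all 4 pcDNA3 libraries, and pair 1 held the widest gap. The log2 FC was 0.29 ± 0.16 (SD, n = 4 pairs), a 1.22-fold difference with a 95% confidence interval from 1.09 to 1.37. The limma adjusted p was 0.080 and the unadjusted p 0.0030. Of its exon bases, 2.82% are shared with its antisense gene SPINT1-AS1. Counting was done without strand in union mode, in which reads that overlap both genes are counted for neither.

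SPINT2 encodes HAI-2, a second transmembrane inhibitor with a pair of Kunitz domains, and lies on chromosome 19 from 38244035 to 38292615. Its values were 2.32, 2.35, 2.37 and 2.36 in pGRHL2 libraries 1 to 4 and 2.36, 2.32, 2.30 and 2.32 in pcDNA3 libraries 1 to 4. The groups overlapped, since pair 1 ran the other way. On average SPINT2 differed by 0.027 ± 0.044 on the log2 scale, with a 95% interval from -0.024 to 0.079. SPINT2 was at percentile 20.2 of level, and the transformation the authors used shrinks differences of genes with few reads. With no read counts, whether this applies to SPINT2 was not tested. In addition, 15.3% of its exon bases are shared with other annotated genes.

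Upstream sequence is shown for SPINT1, the gene with the largest difference, and for HGFAC, the one with the smallest, since Grainyhead factors bind the motif AACCNGTT. RefSeq windows (GRCh38.p14) were matched for 3 of the 9 genes, SPINT1, HPN and HGFAC, and each window printed here stops before the first annotated base of its gene. Neither holds a match on either strand to AACCNGTT or to ACCNGTT, the motif without its first base, so no letter is in capitals.
SPINT1, chr15:40843798-40844017, plus strand: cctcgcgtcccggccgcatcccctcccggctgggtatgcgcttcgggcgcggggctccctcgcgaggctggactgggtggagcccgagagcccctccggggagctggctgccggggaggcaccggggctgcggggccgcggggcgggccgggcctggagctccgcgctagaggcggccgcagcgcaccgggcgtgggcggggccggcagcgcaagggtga
HGFAC, chr4:3441718-3441967, plus strand: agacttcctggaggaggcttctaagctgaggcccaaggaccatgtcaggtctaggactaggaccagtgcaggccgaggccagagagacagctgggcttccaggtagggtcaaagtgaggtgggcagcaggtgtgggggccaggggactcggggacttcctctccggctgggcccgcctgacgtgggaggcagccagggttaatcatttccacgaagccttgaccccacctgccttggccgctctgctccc

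In the 250 bases before the start, none of the 4 RefSeq windows of these 3 genes held AACCNGTT or ACCNGTT. Over all 35116 windows of that length, AACCNGTT was present in 1.49% and ACCNGTT, which includes every AACCNGTT match, in 5.37%. A window without these letters says nothing about sites farther away. The SPINT1 window consisted of G and C for 80.9% of its bases, and the HGFAC window for 63.6%.

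The proteases that HAI-1 restrains were examined next. ST14 encodes matriptase and lies on chromosome 11 from 130159782 to 130210362. Its values were 4.26, 4.29, 4.31 and 4.27 in pGRHL2 libraries 1 to 4 and 4.33, 4.30, 4.28 and 4.32 in pcDNA3 libraries 1 to 4. The groups overlapped, and ST14 was lower in 3 of 4 pairs. For ST14 the log2 FC was -0.024 ± 0.043 (95% interval from -0.098 to 0.050, limma adjusted p of 0.793).

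PRSS8 encodes prostasin, a protease held by a lipid anchor that acts with matriptase, and lies on chromosome 16 from 31131433 to 31135727. The values were 5.76, 5.75, 5.64 and 5.65 in pGRHL2 libraries 1 to 4 and 5.42, 5.43, 5.54 and 5.53 in pcDNA3 libraries 1 to 4. The groups did not overlap, with pairs 1 and 2 about equally wide and pairs 3 and 4 narrower. PRSS8 had a log2 FC of 0.22 ± 0.13 (1.16-fold, 95% interval from 1.07 to 1.27), the limma adjusted p was 0.083 and the unadjusted p 0.0032. About 12% of its exon bases also belong to another annotated gene.

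HPN encodes hepsin, a transmembrane protease abundant in hepatocytes, and lies on chromosome 19 from 35040506 to 35066573. Its values were 7.49, 7.51, 7.27 and 7.38 in pGRHL2 libraries 1 to 4 and 7.26, 7.24, 7.49 and 7.37 in pcDNA3 libraries 1 to 4. Hepsin was higher in pairs 1 and 2 by 0.227 and 0.267, lower in pair 3 by -0.220 and nearly level in pair 4. The log2 FC of 0.071 ± 0.22 was smaller than the spread between pairs (95% interval from -0.12 to 0.26, limma adjusted p of 0.753). It was 0.019 without replicate 1, 0.0052 without replicate 2 and 0.17 without replicate 3. Of its exon bases, 10.3% are shared with HPN-AS1, whose log2 FC was -0.013.

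HGFAC encodes the activator of hepatocyte growth factor, secreted by hepatocytes, and lies on chromosome 4 from 3441968 to 3449486. Values were 7.35, 7.34, 7.32 and 7.27 in pGRHL2 libraries 1 to 4 and 7.29, 7.30, 7.33 and 7.37 in pcDNA3 libraries 1 to 4. Both groups covered nearly the same range. For HGFAC the log2 FC was -0.0030 ± 0.075, with a 95% interval from -0.13 to 0.12.

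**Figure D2:**
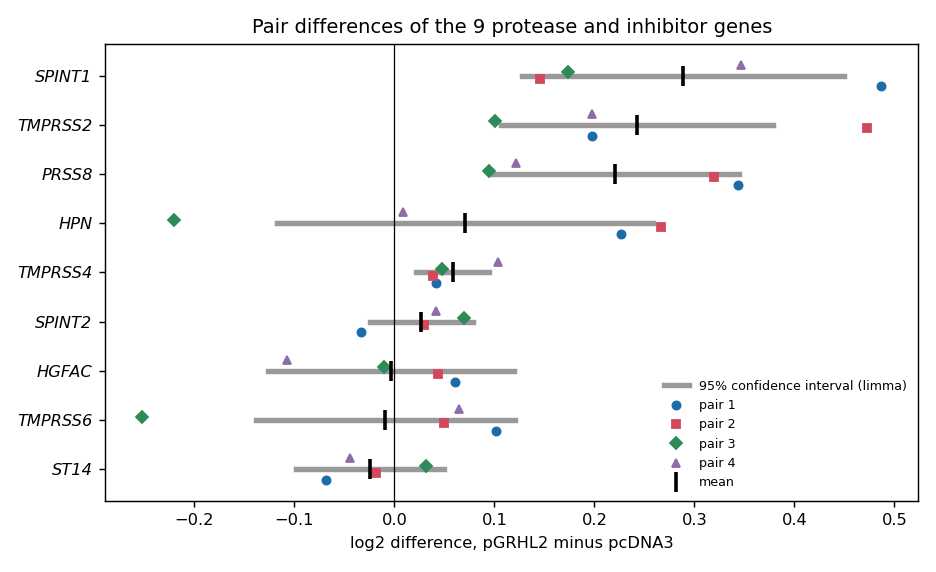
Log2 differences between pGRHL2 and pcDNA3 (horizontal axis) of the 9 genes (vertical axis), with a symbol for each of the 4 pairs, a black bar at the mean and a gray bar for the 95% confidence interval of limma. SPINT1, TMPRSS2, PRSS8 and TMPRSS4 have all 4 pairs to the right of 0, and the intervals of the other 5 genes include 0.

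The remaining transmembrane proteases were considered as a further group. TMPRSS2, an androgen-regulated protease of prostate and other epithelia that also primes viral spike proteins, lies on chromosome 21 from 41464300 to 41531116. The values were 5.37, 5.51, 5.32 and 5.37 in pGRHL2 libraries 1 to 4 and 5.17, 5.04, 5.22 and 5.17 in pcDNA3 libraries 1 to 4. All pGRHL2 libraries lay above all pcDNA3 libraries, most of all in pair 2. TMPRSS2 had a log2 FC of 0.24 ± 0.16 (1.18-fold, 95% interval from 1.08 to 1.30), the limma adjusted p was 0.081 and the unadjusted p 0.0031. MX1, with which TMPRSS2 shares 8.53% of its exon bases, had a log2 FC of -0.041 and was not called.

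TMPRSS4 encodes another epithelial transmembrane protease and lies on chromosome 11 from 118077012 to 118121890. Its values were 1.16, 1.16, 1.16 and 1.19 in pGRHL2 libraries 1 to 4 and 1.12, 1.12, 1.11 and 1.08 in pcDNA3 libraries 1 to 4. The groups did not overlap, although the gap was narrow. The log2 FC was 0.058 ± 0.031 (1.04-fold, 95% interval from 1.02 to 1.07, limma adjusted p of 0.109). At this level differences were small in general, with a median absolute log2 FC of 0.016 over the 1239 other genes within 0.5 of its mean value.

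TMPRSS6 encodes matriptase-2, a hepatocyte protease that cleaves the hepcidin co-receptor hemojuvelin, and lies on chromosome 22 from 37065436 to 37109713. Values were 4.39, 4.37, 4.22 and 4.37 in pGRHL2 libraries 1 to 4 and 4.29, 4.32, 4.47 and 4.31 in pcDNA3 libraries 1 to 4. Pairs 1, 2 and 4 were higher by 0.050 to 0.102, whereas pair 3 differed by -0.252. The log2 FC was -0.0089 ± 0.16 (95% interval from -0.14 to 0.12), and without replicate 3 it was 0.072 with a limma adjusted p of 0.404.

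The spread of these differences followed the level of the genes, as the plot of level and difference shows. Among genes within 0.5 of the mean value of SPINT1, the median SD of the pair differences was 0.123, compared with 0.029 around TMPRSS4. The median absolute log2 FC was 0.065 around SPINT1, 0.057 around PRSS8 and 0.053 around TMPRSS2.

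**Figure D3:**
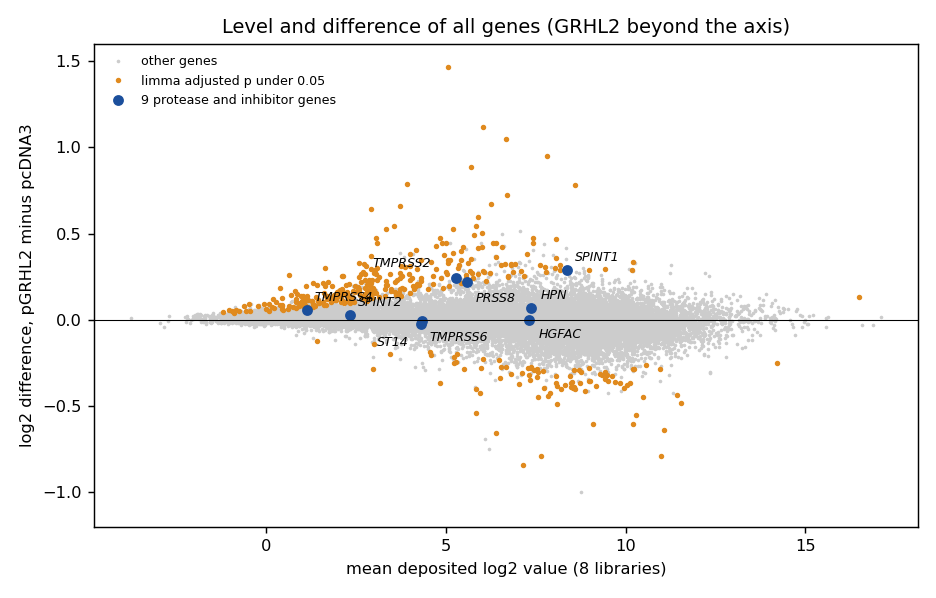
Mean deposited log2 value over the 8 libraries (horizontal axis) against the log2 difference between pGRHL2 and pcDNA3 (vertical axis) for all genes in gray, those with a limma adjusted p under 0.05 in orange and the 9 protease and inhibitor genes in blue. GRHL2, at 9.48, is beyond the axis. SPINT1, TMPRSS2 and PRSS8 lie at 0.22 to 0.29, in the upper part of the gray cloud, and the cloud narrows towards low values, where TMPRSS4 lies.

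The balance of inhibitor and protease within a library was compared directly for SPINT1 against 4 of its target proteases, contrasts set up after the values had been seen. SPINT1 was the inhibitor with the larger log2 FC. It also had the largest log2 FC of the 9 genes, so each contrast was bound to average above 0. SPINT2, with a log2 FC of 0.027, was not set against any protease. In pcDNA3 libraries SPINT1 exceeded ST14 by 3.93 on the log2 scale per length, and in pGRHL2 libraries by 4.24. Genes within 0.5 of the mean value of ST14 had a median absolute log2 FC of 0.034, compared with 0.065 around SPINT1. How far this difference in level enters the contrast was not tested. The pair difference of SPINT1 was larger than that of ST14 in 4 of 4 pairs, by 0.31 ± 0.20. Against HGFAC it was larger in 4 of 4 pairs, by 0.29 ± 0.17. Each of these gave an exact two-sided sign-flip p of 0.13, the smallest that 4 pairs allow (0.25 adjusted over the 4 contrasts). Against HPN the excess was 0.22 ± 0.23 (3 of 4 pairs, exact p of 0.25, 0.333 adjusted), and against PRSS8 it was 0.068 ± 0.17 (3 of 4 pairs, exact p of 0.5, also 0.5 adjusted). The contrast with PRSS8 was 0.016 without replicate 4, 0.043 without replicate 1 and 0.15 without replicate 2, and that with HPN was 0.33 without replicate 2.

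Of the 9 genes, 6 are in the Epith-Signature, the study's list of genes characteristic of epithelial cells (SPINT1, SPINT2, ST14, PRSS8, TMPRSS2 and TMPRSS4). All 4 genes that were higher in every pair are in it, and so are ST14 and SPINT2. The list held 835 symbols. Of all genes, 13.4% were higher in every pair, and the share within the list was not counted. SPINT1 alone is in the list of cholangiocyte-enriched genes, while TMPRSS6 alone is in that of hepatocyte-enriched genes.

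The genes whose 4 pair differences lay closest to those of SPINT1, the gene with the smallest unadjusted p of the 9, were DGKA, ANO10 and JUP. JUP encodes the junction protein plakoglobin, and DGKA a diacylglycerol kinase. The root mean square distance was 0.057 for DGKA, 0.061 for ANO10 and 0.070 for JUP, among 4202 genes that moved the same way in all 4 pairs. Their log2 FC were 0.31, 0.27 and 0.33, with limma adjusted p of 0.056, 0.066 and 0.058.

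Other genes of the pathways were compared through lists. Over 7 lists and the other Grainyhead factors, 75 of 115 genes were in the table, of which 5 were called higher and 1 lower, against 1.69% and 0.501% of all genes. Without 1 replicate, the 5 became 0 (replicate 1), 1 (replicate 2) or 2 (replicate 3 or 4), and the 1 lower gene was called only without replicate 4. Their median log2 FC was 0.026.

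Membrane protease substrates were represented by 9 of 12 genes, with 1 called higher, 0 lower and a median log2 FC of 0.041. The gene called was SCNN1A, which encodes the alpha subunit of the epithelial sodium channel, a channel opened by proteolysis through prostasin and related enzymes. Its values were 7.69, 7.77, 7.64 and 7.55 in pGRHL2 libraries 1 to 4 and 7.16, 7.08, 7.21 and 7.30 in pcDNA3 libraries 1 to 4, so that the groups were well apart. SCNN1A rose by 0.48 ± 0.18 on the log2 scale (limma adjusted p of 0.016, with 7.18% of exon bases shared with LTBR), a call lost without replicate 1, 2 or 3 (0.108, 0.069 and 0.073). LAMB3, a laminin subunit, had a log2 FC of 0.32 ± 0.40, and PDGFC, a growth factor precursor, one of -0.11 ± 0.23, and neither was called.

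Other serine proteases listed as membrane-anchored were represented by 9 of 18 genes, with 2 called higher and 0 lower. Their median log2 FC was 0.026, and whether each protein is held in a membrane was not checked. PRSS22, an epithelial tryptase, was one of the 2, with values of 5.19, 5.23, 5.36 and 5.14 in pGRHL2 libraries 1 to 4 and 4.82, 4.79, 4.66 and 4.87 in pcDNA3 libraries 1 to 4. The groups were clearly apart, and pair 3 held the widest gap. PRSS22 rose by 0.44 ± 0.18 on the log2 scale (limma adjusted p of 0.013, and 0.057 and 0.059 without replicate 1 and 2). PRSS27 rose by 0.11 ± 0.028 at a limma adjusted p of 0.04999, which was above the threshold without any 1 replicate (0.087 to 0.183) and with the pairs centered on their medians (0.054). CORIN, a protease that processes natriuretic peptides, had a log2 FC of -0.035 ± 0.091.

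**Figure D4:**
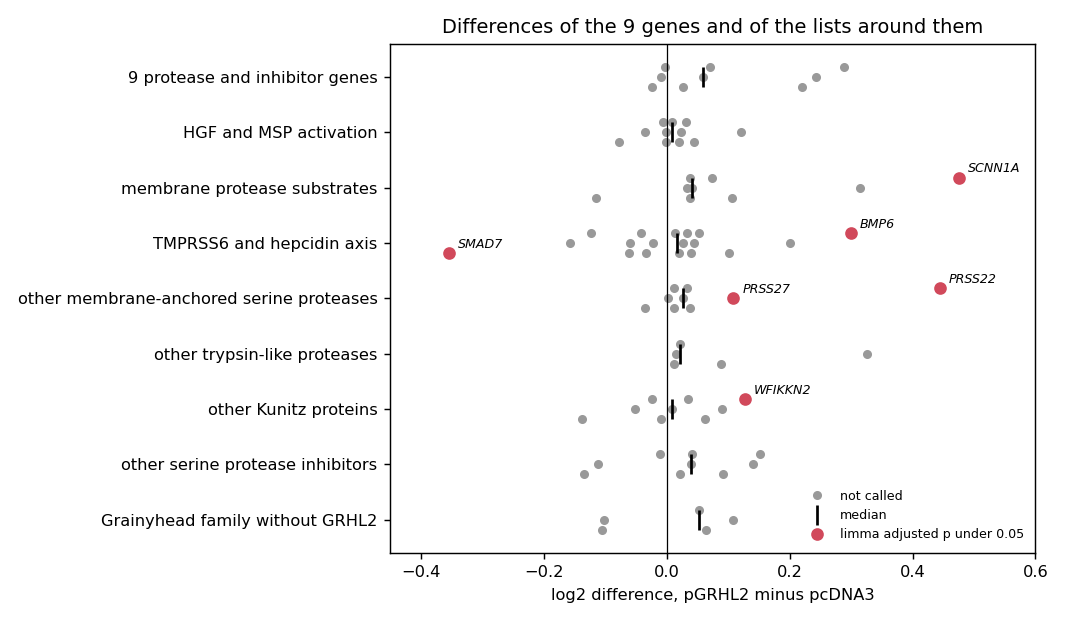
Log2 differences between pGRHL2 and pcDNA3 (horizontal axis) of the 9 genes and of the genes in each list (vertical axis), with black bars at the medians, red points for a limma adjusted p under 0.05 and gray points for the rest. The 6 red points are SCNN1A, PRSS22, BMP6, WFIKKN2 and PRSS27 on the right and SMAD7 on the left, and GRHL2 is left out of its family.

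The TMPRSS6 and hepcidin axis was represented by 18 of 19 genes, of which 1 was called higher and 1 lower, with a median log2 FC of 0.017. BMP6, the ligand that induces hepcidin when iron is high, rose by 0.30 ± 0.11 on the log2 scale (limma adjusted p of 0.022), from 5.11 to 5.24 in pcDNA3 libraries to 5.41 to 5.54 in pGRHL2 libraries. Its call was lost without any 1 replicate (0.052 to 0.104). SMAD7, an inhibitor of the same signaling pathway, fell by 0.35 ± 0.12 (limma adjusted p of 0.030, and 0.172, 0.140 and 0.111 without replicate 1, 2 and 3). HFE, an iron sensor gene, had a log2 FC of 0.20 ± 0.14, and ACVR1, a receptor, one of -0.16 ± 0.16, while HAMP, which encodes hepcidin, had a log2 FC of 0.013.

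Among genes of HGF and MSP activation, 11 of 13 were listed, with a median log2 FC of 0.0082. Of these, 0 were called by limma in either direction and 0 had an unadjusted p under 0.05, against 2.19% and 16.0% of all genes. MST1, which encodes the MSP precursor cleaved by hepsin and matriptase, had a log2 FC of 0.12 ± 0.17, and PLAT, a plasminogen activator, one of 0.045 ± 0.11. The log2 FC was -0.036 ± 0.17 for MET, the receptor of hepatocyte growth factor, and -0.078 ± 0.097 for F11, a clotting protease.

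Other Kunitz proteins were represented by 9 of 13 genes, with 1 called higher, 0 lower and a median log2 FC of 0.0090. WFIKKN2, a secreted protein with Kunitz domains that binds growth factors of the TGF-beta family, rose by 0.13 ± 0.067 (limma adjusted p of 0.045, and 0.155, 0.171 and 0.127 without replicate 1, 2 and 4). TFPI, the Kunitz inhibitor of tissue factor, had a log2 FC of 0.090 ± 0.16. COL7A1 and WFIKKN1, which also carry Kunitz domains, had log2 FC of -0.14 ± 0.17 and -0.051 ± 0.089.

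Other trypsin-like proteases were represented by 5 of 20 genes and other serine protease inhibitors by 9 of 15. In either list 0 genes were called by limma, while 2 and 1 had an unadjusted p under 0.05, against 16.0% of all genes. The lists had a median log2 FC of 0.022 and 0.040. PRSS23 was higher in 4 of 4 pairs, as were 13.4% of all genes. It differed by 0.33 ± 0.19 on the log2 scale (limma adjusted p of 0.058, and 0.045 without replicate 2). For PRSS53, which shares 41.3% of its exon bases with ZNF646 and another gene, the log2 FC was 0.089 ± 0.097. SERPINB6 and SPINK1 had log2 FC of 0.15 ± 0.082 and 0.14 ± 0.20. SERPINE2, an inhibitor of prostasin, had a log2 FC of -0.11 ± 0.26.

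In the Grainyhead family, 1 of 6 genes was called, the transfected GRHL2. GRHL3 had a log2 FC of 0.11 ± 0.081 (higher in 4 of 4 pairs, as were 13.4% of all genes). The log2 FC was -0.10 ± 0.10 for GRHL1 and -0.10 ± 0.054 for UBP1 (limma adjusted p of 0.438 and 0.387).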

How the data were processed

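RNA-seq of HepG2 cells gave 4 pcDNA3 and 4 pGRHL2 libraries. Reads had been aligned by the authors (hg38, HISAT2, 2.2.1 in their processing notes), counted over exons without strand with HTSeq 0.9.1, limited to genes reaching 10 reads over the samples and transformed with the rlog function of DESeq2, which shrinks differences of genes with few reads. The counting mode was union, in which a read that overlaps several genes is counted for none of them. The deposited values are log2, set by the authors against mean transcript length. Among 2371 genes with a range under 0.05, they fell with a slope of -0.84 on log2 length (GENCODE release 44). One stray character was removed.

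The pair means had been made equal (largest spread 2.5e-11), a step not described, so the pairing of the labels was kept. A correlation of deviations is fixed by this and is no check. Limma 3.58.1 (R 4.3.3) was fitted with the replicate number as a block and eBayes with trend, with 3 residual degrees of freedom and Benjamini-Hochberg adjustment over 17561 genes. The fit was tested on simulated data. Depth was unknown. Alternatives were no block, a mean value of at least 5, median-centered pairs, robust eBayes, arrayWeights and leaving out each pair.

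The genes and lists were chosen with earlier results of these data known. Named from each list were the genes called and the 2 largest differences in each direction, and for the gene of the 9 with the smallest p its 3 closest genes. One gene that this rule names is not reported here. MX1, HPN-AS1, LTBR, ZNF646 and HAMP were named after their values were seen.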

Additional observations from a re-analysis of the deposited data

Results flagged for a closer look

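The values of a pair mirror each other, so a library that stands apart does so together with its partner. Of 37 genes examined, 3 had 1 pair whose difference lay far from the rest, where chance gives about 1 in 20. For TMPRSS4 this was pair 4 with 0.104, the other pairs lying between 0.039 and 0.048. For TMPRSS6 it was pair 3 with -0.252, the other pairs lying between 0.050 and 0.102, and HPN was lower in pair 3 too. For F11 it was pair 2 with 0.067, the other pairs lying between -0.143 and -0.115. The causes were not tested.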

How the results depend on the processing

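Without the replicate block, 1821 genes were called higher and 1427 lower, 4 of the 9 protease and inhibitor genes and 12 genes of the lists higher, and 3 genes of the lists lower. Since the pair means were made equal, that fit counts each pair as 2 independent libraries. With arrayWeights the counts were 503 higher and 221 lower, and 3 of the 9 genes were called (limma adjusted p of 0.045 for SPINT1, 0.035 for PRSS8 and 0.048 for TMPRSS2). With a mean value of at least 5, 63 genes were higher, 3 of them in the lists, and 81 were lower. Genes of lower level were left out of that fit. Across the 4 fits that each left out a pair, calls ranged from 79 to 156 higher and from 8 to 68 lower, 0 of the 9 genes were called, and from 0 to 2 genes of the lists were higher and from 0 to 1 lower. The limma adjusted p in these fits was 0.138 to 0.341 for SPINT1, 0.109 to 0.330 for PRSS8 and 0.114 to 0.237 for TMPRSS2. Fewer samples enter these fits. TMPRSS6 turned to 0.0185 and HGFAC to 0.0155 with arrayWeights. Leaving out each replicate, TMPRSS6 ranged from -0.046 to 0.0723 (above 0 without replicate 3), HPN from 0.0052 to 0.1675, HGFAC from -0.0243 to 0.0315 (without replicate 4), MET from -0.1102 to 0.0268 (without replicate 2) and CORIN from -0.0612 to 0.006 (without replicate 2), and none of these was called. The causes of these changes were not tested. The contrasts of SPINT1 with its target proteases kept their direction without each replicate, an alternative added after seeing the data. For ST14 and HGFAC this was fixed in advance, since the contrast was above 0 in 4 of 4 pairs. The contrast with PRSS8 ranged from 0.0162 to 0.1488. With no read counts, what depth limits could not be computed.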
